A study of Mus musculus with 5 samples.

Results

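The genes described here set the phosphorylation of myosin regulatory light chains: the light chain kinases *Mylk*, *Mylk2*, *Mylk3* and *Mylk4*, the light chain *Myl9*, and *Ppp1r12a* and *Ppp1r12b*, which encode targeting subunits of myosin phosphatase. The set was selected on the intensity of *Mylk4*, which was lower in *Clock* mutant than in wild-type skin on these same arrays, and the other 6 genes were added for their role, so the *Mylk4* values are given as a description with no test. Every probe set that the platform annotation assigned to 1 of these genes alone was taken, which gave 15 probe sets for 7 genes among 34945 probe sets for 18193 genes. Of the 15 probe sets, 12 passed the filter on low intensity and 3 did not, and *Mylk3* was left with no tested probe set.

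Whole-genome arrays measured total RNA of dorsal skin at postnatal day 23 (P23), with 1 array for each of 2 *Clock* mutant and 3 wild-type (WT) littermate biological replicates. All 5 were staged as telogen, the resting phase of the hair follicle, and the *Clock* mice of the study were on a C57BL/6J background. In its wild-type time course the study classed P23 as early anagen, the start of growth. It also reported a delay into the first anagen in *Clock* mutants. Whether the 2 groups differed in closeness to anagen was not tested. *Clock* mutant replicate 1 was a male and the other 4 mice were females. The mutation is carried in every tissue, not in skin alone. The study writes its mutants as *Cl/Cl* where it stages hair follicles, whereas the genotype of the mouse behind each array is labelled only *Clock* mutant or WT, and the time of day of collection is not given in the sources used here. The values are MAS5 intensities, which have no absolute scale, so levels are compared between arrays for the same probe set only. Differences are in log2 units, *Clock* mutant minus WT, with the standard error (SE) of limma.

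Myosin in smooth muscle and in non-muscle cells is switched on when a kinase activated by calcium phosphorylates its regulatory light chain, and it is switched off when myosin phosphatase removes the phosphate. Signals through the GTPase RHOA and its kinases ROCK1 and ROCK2 inhibit the phosphatase and so prolong contraction. In skeletal and heart muscle, phosphorylation of the light chain does not start contraction but increases its force. Whole dorsal skin holds all of these settings: smooth muscle in arrector pili and vessel walls, non-muscle myosin in keratinocytes and fibroblasts, and skeletal muscle in the panniculus carnosus, the thin sheet beneath the skin.

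The promoter window of *Mylk4* is shown because this gene carried the largest difference among the 7. The window holds the 250 bases before and the 50 bases after a RefSeq start of the gene (build GRCm38.p6, chr13:32783915-32784214, minus strand). The capitals mark a CAGCTG, a sequence of the type bound by muscle bHLH factors, which was looked for after the window had been read.
Mylk4: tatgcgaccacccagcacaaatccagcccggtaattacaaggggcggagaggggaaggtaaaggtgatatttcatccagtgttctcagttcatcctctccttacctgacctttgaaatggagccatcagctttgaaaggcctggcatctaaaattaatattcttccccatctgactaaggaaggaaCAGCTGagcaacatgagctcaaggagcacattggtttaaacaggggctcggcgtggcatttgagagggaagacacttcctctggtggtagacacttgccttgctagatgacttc

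Windows were listed for 6 of the 7 genes, 8 windows in all, and both strands were searched for exact matches. The E-box CACGTG, to which CLOCK and BMAL1 bind, was found in 0 of the 8 windows and in 7.15% of the 32851 windows of all genes. The related CACGTT was found in 0 of the 8 and in 4.68% of all windows. CAGCTG occurred in 1 of the 8, that of *Mylk4*, and in 16.3% of all windows, and the CArG box, the element of serum response factor in muscle genes, occurred in 1 of the 8, that of *Myl9*, and in 1.63% of all windows. These matches describe letters in short windows and no binding was measured.

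*Mylk4* (Entrez 238564), a kinase of this family whose message is found mainly in striated muscle, was represented by a single probe set, 1441111_at. Its intensity in *Clock* mutant skin was 766 on the array of replicate 1 and 426 on that of replicate 2, and in WT skin it was 2506, 3007 and 2746, in the order of the replicates, which is kept throughout. Both mutant arrays lay far below all 3 WT arrays. The control probes for RNA quality, whose ratio of 3' over 5' signal is higher in degraded RNA, also divided the genotypes: the *Gapdh* ratio was 1.06 and 0.988 in the mutants and 0.861 to 0.955 in WT skin, and the actin ratio was 1.21 and 1.23 in the mutants and 1.14 to 1.20 in WT skin. The part of RNA quality in the results was not tested. The means were 596 ± 240.4 (SD, n = 2) and 2753 ± 250.4 (SD, n = 3), and the difference of the mean log2 values was -2.26, which is 4.80-fold lower. Relative to the WT mean, the male mutant was at -1.84 and the female mutant at -2.69, so that the mutants were 0.85 apart from each other while the WT arrays spanned 0.26. Since this is whole skin, fewer cells with the message and less message in each cell cannot be told apart.

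**Figure D1:**
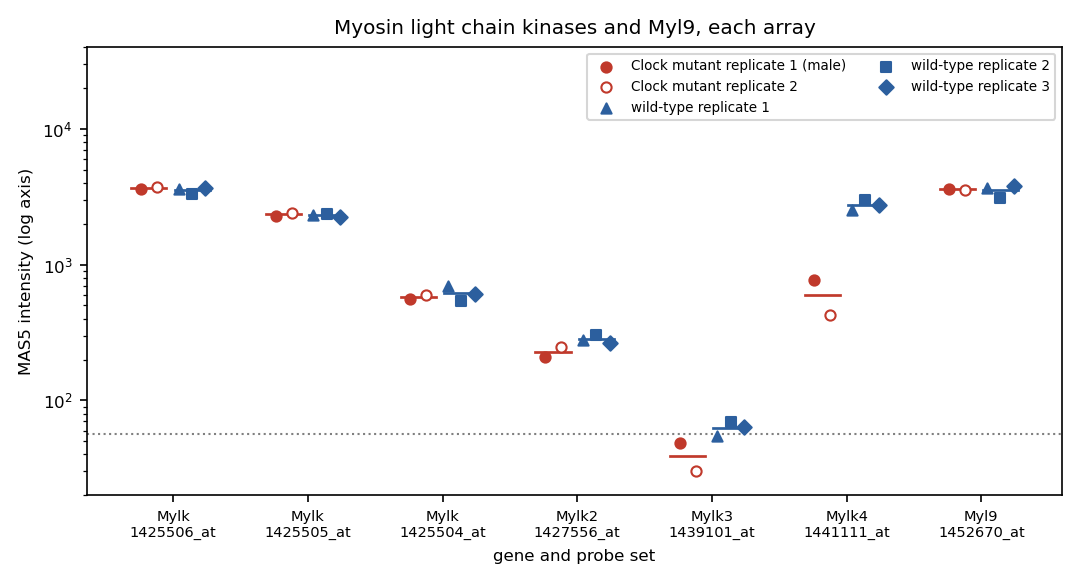
MAS5 intensity on a log axis (vertical) of each array for the probe sets of the 4 kinases and *Myl9* (horizontal); red circles are *Clock* mutant arrays (filled, replicate 1), blue symbols are WT arrays, bars are group means and the dotted line is the filter at an intensity of 56.7. *Mylk4* lies at 426 and 766 in the mutants against 2506 to 3007 in WT skin, while the arrays of both genotypes mingle for *Mylk* and *Myl9*.

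Of the 11 tested probe sets of the other genes, 0 passed the adjusted threshold of 0.05 in limma, against 0.0888% of all 27022 probe sets tested (0.074% lower and 0.0148% higher). At an unadjusted p under 0.05 there was 1 of the 11, against 10.8% of all probe sets tested, and a Cyber-T style test, which borrows the spread of probe sets of like brightness, called 0, against 1.26% of all. The groups did not overlap at 4 of the 11, or 36.4%, against 27.9% of all probe sets tested. Of the 4, the mutants were below WT skin at 3 (background 15.1%) and above at 1 (background 12.8%), counts too small to set apart from the background.

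*Mylk2* (Entrez 228785) encodes the skeletal muscle kinase, which acts on the light chain of fast fibres. Its probe set 1427556_at had an intensity of 209 and 248 in the mutants and 279, 303 and 266 in WT skin. Both mutant arrays were below the lowest WT array, but the gap was small beside the spread. The log2 difference was -0.31 (SE 0.156, 95% interval -0.66 to 0.04, limma adjusted p = 0.508), and it lay between -0.43 and -0.19 over the alternatives.

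*Mylk3* (Entrez 213435) encodes the kinase of heart muscle. It was near the bottom of the intensity range, at 48.3 and 30.1 in the mutants and 54.3, 69.7 and 63.2 in WT skin (1439101_at). Both mutant values were below those of WT skin, and the mean lay below the filter of 56.7, so the difference of -0.70 was not tested. MAS5 values are noisy at this level. Of the 7 heart muscle markers listed, *Myh6*, *Nppa* and *Myl7* also lay below the filter, while *Actc1*, *Tnnt2*, *Tnni3* and *Myl4* passed the filter.

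*Mylk* (Entrez 107589), which encodes the kinase of smooth muscle and of non-muscle cells, had 3 probe sets that differed little between the genotypes. The brightest, 1425506_at, was at 3576 and 3712 in the mutants and 3594, 3284 and 3674 in WT skin, a log2 difference of 0.05 (SE 0.081, 95% interval -0.13 to 0.24, limma adjusted p = 0.847). The second, 1425505_at, was at 2286 and 2394 in the mutants and 2299, 2354 and 2246 in WT skin (0.02, 95% interval -0.15 to 0.20). The dimmest, 1425504_at, was at 556 and 601 in the mutants and 690.4, 543 and 608 in WT skin (-0.08, 95% interval -0.38 to 0.22). The groups overlapped at all 3, and the signs disagreed.

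*Myl9* (Entrez 98932) encodes the regulatory light chain of smooth muscle, a substrate of the *Mylk* kinase. Its probe set 1452670_at was at 3632 and 3544 in the mutants and 3669.5, 3112 and 3781 in WT skin. Both mutant arrays fell inside the WT range. The log2 difference was 0.03 (SE 0.097, 95% interval -0.19 to 0.25, limma adjusted p = 0.928).

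*Ppp1r12a* (Entrez 17931) encodes MYPT1, which brings the catalytic subunit of protein phosphatase 1 to myosin. All 4 of its probe sets had negative differences and none passed the adjusted threshold. After median centring of the arrays the differences were -0.10, -0.04, -0.16 and -0.62, in order from the brightest probe set to the dimmest. At the brightest, 1437735_at, the intensity was 2057 and 2322 in the mutants and 2507, 2494 and 2446 in WT skin, a log2 difference of -0.18 (SE 0.085, limma adjusted p = 0.477). The mutants lay below WT skin without overlap there. At the dimmest, 1453163_at, it was 478 and 789.6 in the mutants and 1042, 1069.6 and 900.4 in WT skin, a log2 difference of -0.70 (SE 0.192, unadjusted p = 0.0051, limma adjusted p = 0.299), again without overlap.

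At the other probe sets of *Ppp1r12a*, 1437734_at and 1429487_at, the groups overlapped, with differences of -0.12 (adjusted p = 0.652) and -0.24 (adjusted p = 0.571). At 1437734_at the intensity was 1558 and 1793 in the mutants and 1804, 1879 and 1785 in WT skin. At 1429487_at it was 1055 and 1468 in the mutants and 1498, 1615 and 1324 in WT skin. *Clock* mutant replicate 1 was the lowest of the 5 arrays at all 4 probe sets. Without that array the differences shrank to -0.10, -0.02, -0.01 and -0.34, in order from the brightest to the dimmest, and without *Clock* mutant replicate 2 the dimmest reached -1.07 (adjusted p = 0.025). Of the ratios of RNA quality given above, *Gapdh* was highest in that array and actin in *Clock* mutant replicate 2. The probe sets 1429487_at and 1453163_at were designed from the same sequence record, as were 1437734_at and 1437735_at, so they are not independent measures.

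*Ppp1r12b* (Entrez 329251) encodes MYPT2, the related subunit found mainly in striated muscle. Its bright probe set 1434786_at was at 2364 and 2215 in the mutants and 2151, 1825 and 2012 in WT skin. Here both mutant arrays were above all WT arrays, the opposite side from *Ppp1r12a*. The log2 difference was 0.20 (SE 0.095, 95% interval -0.02 to 0.42, limma adjusted p = 0.485).

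The 3 dim probe sets of *Ppp1r12b* did not share a direction. At 1445850_at the intensity was 55.0 and 80.0 in the mutants and 86.8, 71.7 and 97.4 in WT skin (-0.35, adjusted p = 0.675). Below the filter, 1460091_at was at 33.6 and 17.0 in the mutants and 54.8, 52.1 and 75.8 in WT skin, while 1431462_at was at 71.6 and 59.4 in the mutants and 38.8, 10.1 and 54.9 in WT skin. Those untested differences were -1.33 and 1.23, opposite in sign and each without overlap of the groups. With the mean of all 4 probe sets the gene was at -0.06 (adjusted p = 0.953), so its sign depends on how the probe sets are joined.

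**Figure D2:**
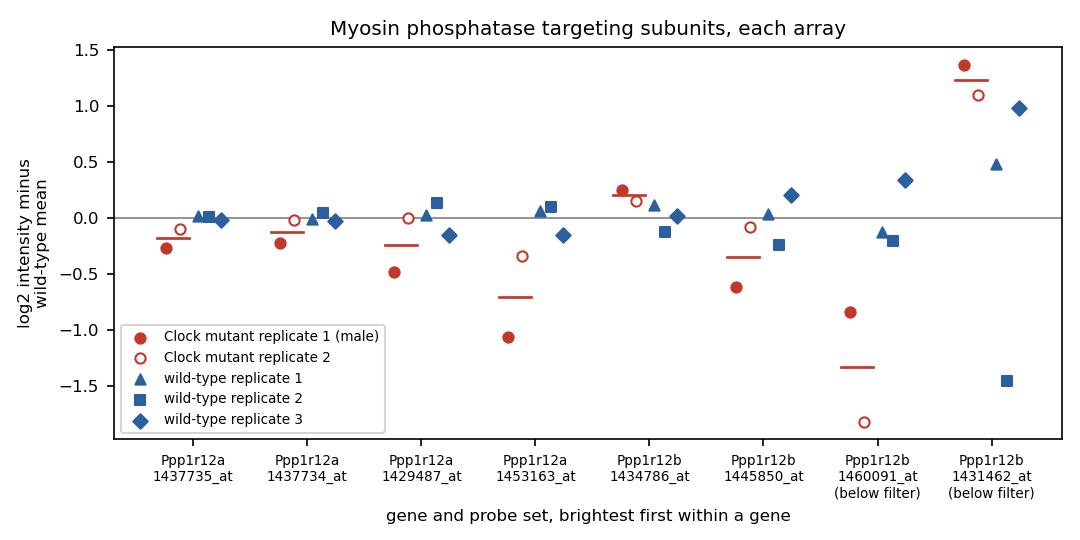
Log2 intensity of each array minus the WT mean (vertical axis) for every probe set of *Ppp1r12a* and *Ppp1r12b* (horizontal axis, the brightest first within a gene); red circles are *Clock* mutant arrays (filled, replicate 1), blue symbols are WT arrays and red bars are mutant means. *Clock* mutant replicate 1 is the lowest array at all 4 *Ppp1r12a* probe sets, and the 2 probe sets below the filter are at -1.33 and 1.23.

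The amount of muscle in each sample was followed with marker genes. All 15 fast skeletal muscle genes were tested, 0 passed, and their median log2 difference was -0.05, against -0.02 over all probe sets tested, with 4 of 15 positive as scaled by the authors and 13 of 15 positive after median centring of the arrays, which adds 0.09 to every difference. Their summed intensity was 268982 to 285751 in the mutants and 277130 to 303294 in WT skin. *Acta1*, skeletal actin, differed by -0.03 (adjusted p = 0.915), *Ckm*, muscle creatine kinase, by -0.07, *Tnnt3*, fast troponin T, by -0.08, *Actn3*, fast fibre actinin, by 0.01, and *Mylpf*, the fast regulatory light chain, by 0.02. Taking for each gene its brightest probe set, 14 of the 15 lay between -0.11 and 0.04. The groups did not overlap at 1 of the 15, *Myh4*, a myosin of fast fibres, against 27.9% of all probe sets tested.

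The exception was *Myh2*, the myosin of fast oxidative fibres, at 5227 and 8369 in the mutants and 10849, 8103 and 9821 in WT skin (-0.53, adjusted p = 0.376). The low value was that of *Clock* mutant replicate 1, whereas *Mylk4* was lower in replicate 2. Without *Clock* mutant replicate 2, *Myh2* was at -0.87 (adjusted p = 0.0484). Apart from *Myh2*, no fast gene differed by more than 1.20-fold between its highest and its lowest array at its brightest probe set. The part of muscle amount in the *Mylk4* values was not tested. Dimmer tested probe sets of the same genes reached -0.60 for *Myh4*, -0.40 for *Tnni2*, -0.22 for *Myh1* and 0.13 for *Ckm*. Many of the brightest probe sets lay near the brightest values of the arrays, up to 25081 against array maxima of 25769 to 29617, and whether they compress a difference was not tested.

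The 11 smooth muscle markers, which bear on *Mylk* and *Myl9*, were all tested and 0 passed, with a median of 0.05 and 8 of 11 positive (0.14 and 9 of 11 after median centring). Their summed intensity was 33378 to 36456 in the mutants and 30504 to 35374 in WT skin. *Acta2*, smooth muscle actin, differed by 0.12 (adjusted p = 0.646), *Myh11*, smooth muscle myosin, by 0.05, *Tagln*, transgelin, by 0.07 and *Cnn1*, calponin, by 0.25 (adjusted p = 0.598). Of the 3 negative genes, *Lmod1* was at -0.20 and *Cald1* at -0.02. All 4 tested probe sets of *Cald1* were negative, down to -0.54. Other tested probe sets reached 0.50 for *Acta2* and -0.32 for *Synpo2*. The smallest p was that of *Myocd*, a coactivator of smooth muscle genes, at -0.94 (adjusted p = 0.436), with an intensity of 25.9 in *Clock* mutant replicate 1. The 6 pericyte markers, of cells that wrap small vessels, had a median of -0.02 with 0 passing and 2 of 6 positive (0.07 and 6 of 6 after median centring, and a median of 0.13 without *Clock* mutant replicate 2), and *Pdgfrb* had the smallest p (0.28, adjusted p = 0.362). The epidermal and dermal markers were present as the tissue label implies, with *Krt14*, a basal keratin, at 9794 to 11323 and *Col1a1*, a collagen, at 19368 to 22198 on the 5 arrays, and 0 of 10 passed. In this list *Krt1*, a suprabasal keratin, had the smallest p (0.31, adjusted p = 0.34).

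**Figure D3:**
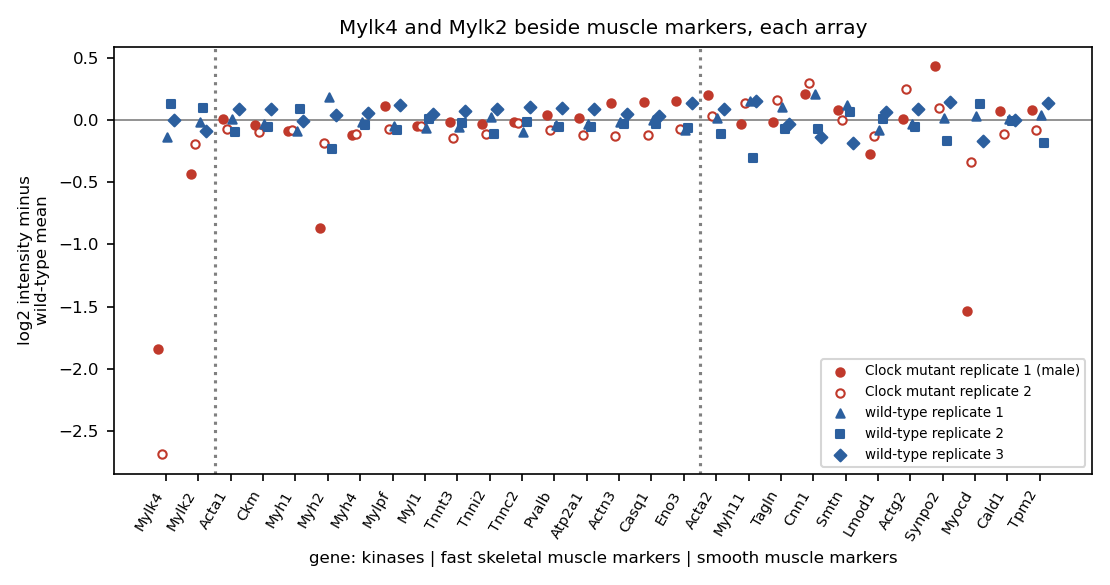
Log2 intensity of each array minus the WT mean (vertical axis) for *Mylk4* and *Mylk2*, 15 fast skeletal muscle markers and 11 smooth muscle markers (horizontal axis, divided by dotted lines); red circles are *Clock* mutant arrays (filled, replicate 1) and blue symbols are WT arrays. *Mylk4* lies at -1.84 and -2.69 in the mutants. At their brightest probe sets, 14 of the 15 fast muscle genes have group differences of -0.11 to 0.04, and dimmer tested probe sets, not drawn, reach -0.60.

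The partners of the phosphatase did not pass either. Of 10 genes for catalytic subunits, further targeting subunits, inhibitors and the cGMP-dependent kinase *Prkg1*, 10 were tested, 0 passed, and 8 were positive with a median of 0.10 (0.19 after median centring, 0.05 without WT replicate 2). *Ppp1cb*, the catalytic subunit of myosin phosphatase, was at 3296 and 3734 in the mutants and 4287, 4176 and 3787 in WT skin (-0.22, SE 0.09, adjusted p = 0.442). Both mutants were below WT skin, *Clock* mutant replicate 1 was again the lowest array, and all 4 tested probe sets of *Ppp1cb* were negative, from -0.22 to -0.06, with the range at -0.13 to 0.03 after median centring. *Ppp1r12c*, the third MYPT gene, was at -0.06 and *Ppp1r14a*, which encodes the phosphatase inhibitor CPI-17, was at 0.11 (adjusted p = 0.794). *Ppp1r14c*, a related inhibitor, had the smallest p, at 2887 and 2169 in the mutants and 2003, 1904 and 2035 in WT skin (0.34, adjusted p = 0.378).

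Of the 8 tested genes of the RHOA pathway, 0 passed, with 3 positive, 5 negative and a median of -0.14 (-0.05 after median centring, -0.08 without *Clock* mutant replicate 1). *Rhoa* itself was at 4524 and 4132 in the mutants and 4565, 4176 and 4209 in WT skin (0.004, 95% interval -0.18 to 0.19), and another of its probe sets was at -0.31. *Rock1* was at 1368 and 1615 in the mutants and 1720.3, 1752 and 1710.1 in WT skin (-0.22, adjusted p = 0.468), with all 5 tested probe sets negative, from -0.65 to -0.22 (-0.56 to -0.13 after median centring). *Rhoc* had the smallest p, at 1878 and 1488 in the mutants and 1297, 1290.3 and 1168 in WT skin (0.42, adjusted p = 0.307), but its other probe set was at -0.09.

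Among light chains and heavy chains of non-muscle myosin, 0 of 6 passed and the median was 0.07 (0.15 after median centring, -0.03 without *Clock* mutant replicate 2). *Myl6*, the essential light chain, had the smallest p, at 926 and 1062 in the mutants and 1189, 1167 and 1223 in WT skin (-0.27, adjusted p = 0.404), without overlap. *Myl12a* and *Myl12b*, the regulatory light chains of non-muscle myosin, were at -0.10 (adjusted p = 0.658) and 0.05 (adjusted p = 0.83), with overlap of the groups.

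Of 11 tested kinases with a related catalytic domain or that phosphorylate light chains by another route, 0 passed, with a median of 0.10 (0.18 after median centring, -0.006 without *Clock* mutant replicate 1). *Cdc42bpb*, which encodes MRCKB, a kinase downstream of the GTPase CDC42, had the smallest p of this list. It was at 330.4 and 489 in the mutants and 740.1, 759 and 761 in WT skin, and the difference was -0.91 (log2, SE 0.162, limma adjusted p = 0.124), without overlap. Without *Clock* mutant replicate 2 it was at -1.19 (adjusted p = 0.0169), and the Cyber-T style test gave an adjusted p = 0.005. The giant muscle kinases *Ttn* (-0.08) and *Speg* (0.12) and the death-associated kinase *Dapk3* (-0.17), which phosphorylates light chains without calcium, did not pass.

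**Figure D4:**
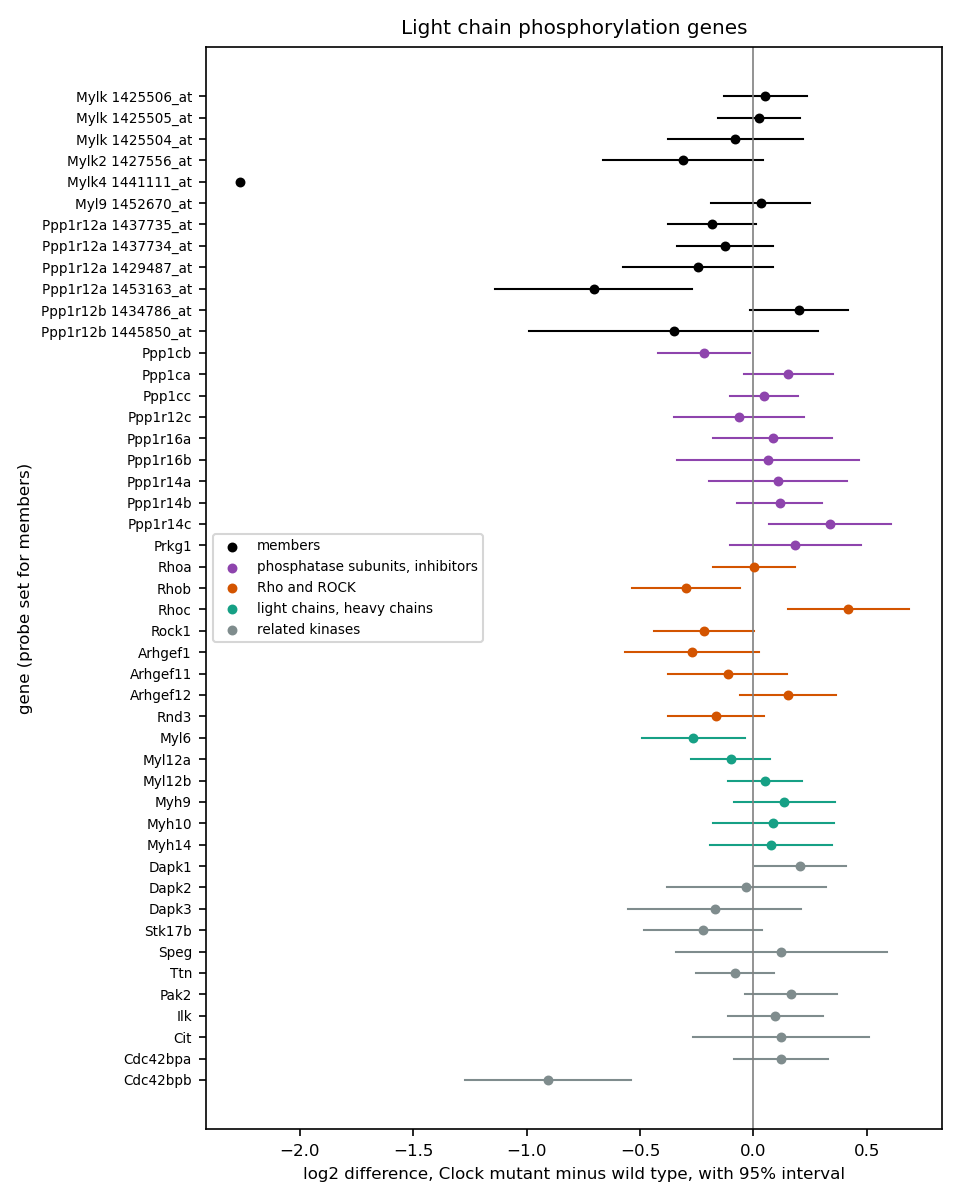
Log2 difference between *Clock* mutant and WT skin (horizontal axis) with its 95% interval from limma for each tested probe set of the 7 genes and for genes of the pathway at their brightest tested probe set (vertical axis, coloured by group); *Mylk4* is drawn without an interval because its difference chose the genes. *Mylk4* is at -2.26, *Cdc42bpb* at -0.91 and the dimmest *Ppp1r12a* probe set at -0.70.

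The genes with the profile most like *Mylk4* were found by the root mean square distance between log2 profiles over the 5 arrays, each centred on its own mean. They were *Gsta3*, a glutathione S-transferase (distance 0.28), *Vamp3*, of vesicle fusion (0.43), *Cxcl13*, a chemokine (0.45), *Fmo2*, a flavin-containing monooxygenase (0.47), and *Slc25a25*, a mitochondrial carrier (0.50). Each had both mutant arrays below all WT arrays, which a search for the *Mylk4* profile selects. At the probe set nearest to *Mylk4*, *Gsta3* was at 30.1 and 25.8 in the mutants and 114, 124 and 170.4 in WT skin. *Vamp3* was at 37.5 and 41.0 in the mutants and 148, 136 and 113 in WT skin. The mutant values of both genes lay under the filter of 56.7, so these probe sets passed it only through their WT values. Without *Clock* mutant replicate 1, 1 of these 5 genes, *Gsta3*, was again among the 5 nearest, but at another of its probe sets, so this order rests on the arrays included.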

How the data were processed

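The authors extracted total RNA with Trizol, labelled cRNA with biotin and hybridised 1 Affymetrix array per biological replicate. The deposited values are MAS5 signal intensities, 1 per probe set and array; MAS5's version is not given in the sources used here. Each array had a 2% trimmed mean of 500.0, so the deposited scaling was kept. Array medians were 106.0 to 118 and correlations between arrays 0.950 to 0.961 (log2). Precision is limited by having only 5 arrays.

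Of 45101 probe sets, 64 controls were left out. Genes were named from the platform annotation (34945 probe sets with 1 symbol, 932 with several, 9160 unnamed here). Intensities under 1 were set to 1, log2 was taken, and the dimmest probe sets, those whose log2 mean fell below the 40th percentile (an intensity of 56.7), were removed, leaving 27022. The genotypes were tested in R 4.3.3 by limma 3.58.1 (lmFit, eBayes with trend, two-sided; Benjamini-Hochberg over all probe sets tested). The step was run on simulated data with independent noise, which held no differences of array, sex or RNA quality. A list gene stands for its brightest tested probe set. The text names all members, the 5 profiles nearest to *Mylk4*, main pathway genes and markers, and the smallest p of each list. The members and lists were chosen with earlier results of these data known. Genes and lists were described by counts and medians, with no set test. Promoter sequences came from RefSeq, build GRCm38.p6. The alternatives were quantile normalization, median centring, other filters, log2 of the intensity plus 32, other priors, a Cyber-T style test, a replicate block, the mean of probe sets, and leaving out each array.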

Additional observations from a re-analysis of the deposited data

How the results depend on the processing

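The *Mylk4* difference, which chose the genes, is again given as a description. The filters, the priors and the Cyber-T style test cannot change a difference of means. It was -2.26 after quantile normalization, -2.18 after median centring and -2.20 with 32 added to the intensity. With 1 array left out *Mylk4* lay between -2.69 and -1.84, the former without *Clock* mutant replicate 1 and the latter without replicate 2. Of the other tested probe sets of the 7 genes, 0 passed under every alternative except that 1, the dimmest of *Ppp1r12a*, passed without *Clock* mutant replicate 2, so that the count over single arrays left out was 0 to 1. A few signs turned. *Mylk* 1425505_at was at -0.0041 after quantile normalization and -0.0082 to 0.058 with 1 array left out, *Mylk* 1425504_at at 0.0086 after median centring and -0.17 to 0.0087 with 1 array left out, and *Myl9* at -0.054 to 0.086 with 1 array left out. With the mean of its probe sets *Mylk* was at -0.00074 and *Ppp1r12b* at -0.062.

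Over all probe sets, the count called, 24 with 20 lower, was 10 with 8 lower without a filter, 340 with 226 lower in the Cyber-T style test and 0 with 0 lower without a trend in the prior (2631 at an unadjusted p under 0.05). With 1 array left out it was 0 to 201, with 0 to 162 lower: 13 without *Clock* mutant replicate 1, 201 without *Clock* mutant replicate 2, 20 without WT replicate 1, and 0 without WT replicate 2 or 3 (1581 and 2194 at an unadjusted p under 0.05). With the replicate number as a block it was 106 with 80 lower. Arrays of the same number had correlations of deviations of 0.0078 and 0.0986. With only 2 mutants their deviations mirror each other, so these values cannot decide whether the numbers pair the mice. The main fit used no pairing. When *Clock* mutant replicate 1 or 2 is left out, the lone mutant array is assumed to vary like the WT group. Of the 87 tested list genes, 0 passed (15, or 17.2%, at an unadjusted p under 0.05, against 10.8% of all probe sets tested). *Casq2*, of the calcium store, made the count of higher genes 1 after median centring, 1 in the Cyber-T style test and 1 with the block. *Cdc42bpb* made the count of lower genes 1 in the Cyber-T style test. With 1 array left out the counts were 0 to 2 higher and 0 to 2 lower. Median centring moved the median of all probe sets from -0.02 to 0.07, and the cause of these changes was not tested.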

Other observations

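Some markers of slow and heart muscle varied between the arrays. *Casq2*, a calcium store protein of slow and heart muscle, was at 1526 and 1134 in the mutants and 726, 561 and 581 in WT skin, a log2 difference of 1.09 (SE 0.159, limma adjusted p = 0.0566) in the direction opposite to *Mylk4*. *Mb*, myoglobin, was at 5701 and 3057 in the mutants and 2900.1, 2417 and 3278 in WT skin (0.55, adjusted p = 0.44), so that its higher mean rests on *Clock* mutant replicate 1. *Actc1*, the heart actin that skeletal muscle also makes, was at 11414 and 3272 in the mutants and 8230 to 11967 in WT skin (-0.71, adjusted p = 0.557). Its difference was -1.61 (adjusted p = 0.0412) with *Clock* mutant replicate 1 left out. *Myh7* and *Myl2*, which define slow fibres, lay below the filter, at intensities of at most 16.7 and 51.1. Their untested differences were -1.16 and -0.34, and that of *Tnni1*, a slow marker also below the filter, was -1.06. Of 6 tested slow markers and 4 tested heart markers 0 passed. Of the tested slow markers 4 were positive and 2 negative. The negative ones were *Tnnt1* at -0.52 (adjusted p = 0.43), with both mutants below all WT arrays, and *Tnnc1* at -0.28 (adjusted p = 0.753). The median of the slow markers was 0.19, but -0.28 with no filter and 0.08 with either one of the mutant arrays left out. That of the heart markers was -0.22, but 0.04 with no filter or the stricter filter, -0.05 without *Clock* mutant replicate 1 and 0.18 without *Clock* mutant replicate 2, so neither list had a settled direction. In the heart list *Tnnt2*, a troponin T also made by immature skeletal muscle, had the smallest p (0.54, adjusted p = 0.391).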
